A study of Mus musculus with 4 samples.

Results

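Killer cell lectin-like receptors are C-type lectin proteins on natural killer (NK) cells and some T cells. They were followed here in mouse splenocytes, the mixed cell suspension of a whole spleen. The 9 genes were taken by symbol from the deposited expression table and make up 9 of its 14226 rows. They are Klrb1a, Klrb1b and Klrb1c of the NKR-P1 family, Klrc1, Klrd1 and Klrk1 of the CD94 and NKG2 receptors, the paired genes Klre1 and Klri2, and Klrg1. In vcS5 spleens 3 of them were higher (Klrc1, Klrd1 and Klre1), 3 were lower (Klrb1a, Klrb1b and Klri2), and 3 (Klrb1c, Klrk1 and Klrg1) did not pass the test.

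The 2 vcS5 libraries came from transgenic mice with the genotype vcS5 +/T, and the table's headers call this group line1, so a single transgenic line is named. The 2 wild-type (wt) libraries came from mice labelled wt, and both groups have the strain C57BL/6N. The series title names an activating STAT5 mutation and peripheral T cell lymphoma. STAT5 carries signals of several cytokine receptors, including those for interleukin 2 and interleukin 15, to the nucleus. The promoter of the transgene, the age and the sex of the mice are not given in the sources used here. The design calls the 2 samples of a group biological replicates.

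NK cells weigh activating against inhibitory receptors when they meet another cell. Some NKR-P1 receptors, such as NKR-P1B, bind Clr proteins. These are encoded among the NKR-P1 genes in the same cluster, called the natural killer complex. CD94, the product of Klrd1, pairs with NKG2A, the product of Klrc1, and this inhibitory pair reads the MHC class Ib protein Qa-1. NKG2D, the product of Klrk1, is an activating receptor for stress-induced ligands. Activated CD8 T cells can express CD94, NKG2A, NKG2D and KLRG1, so none of these is exclusive to NK cells.

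Values are FPKM, sequenced fragments relative to transcript length and library size, as the authors computed them. Changes are differences of mean log2(FPKM + 1), vcS5 minus wt, tested with limma over all rows. A row passes at a Benjamini-Hochberg adjusted p under 0.05. The added 1 makes changes of low rows look smaller than they are, so the ratio of mean FPKM is given as well. Median FPKM was between 12.2 and 12.6 in all 4 libraries. FPKM does not hold the read numbers, so the depth is unknown and no counting interval is given. Stat5a was 7.39-fold higher in vcS5, with 105 and 123 FPKM in vcS5 and 13.9 and 17.0 FPKM in wt. Neutrophil marker transcripts differed between the wt libraries, with summed levels of 865 and 812 FPKM in vcS5 and 5041 and 1543 FPKM in wt. Csf3r, the neutrophil marker that passed, had 35.8 and 44.0 FPKM in wt. Without wt replicate 1, the library with the highest sum, the log2 changes were 2.05 for Klrc1, 1.47 for Klrd1 and 1.61 for Klre1. They were -1.35 for Klrb1a, -1.85 for Klrb1b and -1.09 for Klri2. Receptors also fell short of the test with each of the other libraries left out. The part of neutrophils in the receptor changes was not tested.

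The 6 receptors past the test, 3 in each direction, compare with 8.72% of all rows, 4.59% higher and 4.13% lower in vcS5. By the q-value of the authors' deposited table, 7 of the 9 passed at 0.05, against 11.5% of all rows. Of these, 4 were higher, against 5.31% of rows, and 3 were lower, against 6.14%. The libraries of the groups did not overlap for 9 of 9 receptors, against 54.4% of all rows. Klrb1a and Klrb1b averaged under 1 FPKM in vcS5. All rows of the table average above 1 FPKM over the libraries, so these 2 genes are in it through their wt level. The count of 3 lower receptors is therefore a description of these genes.

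**Figure D1:**
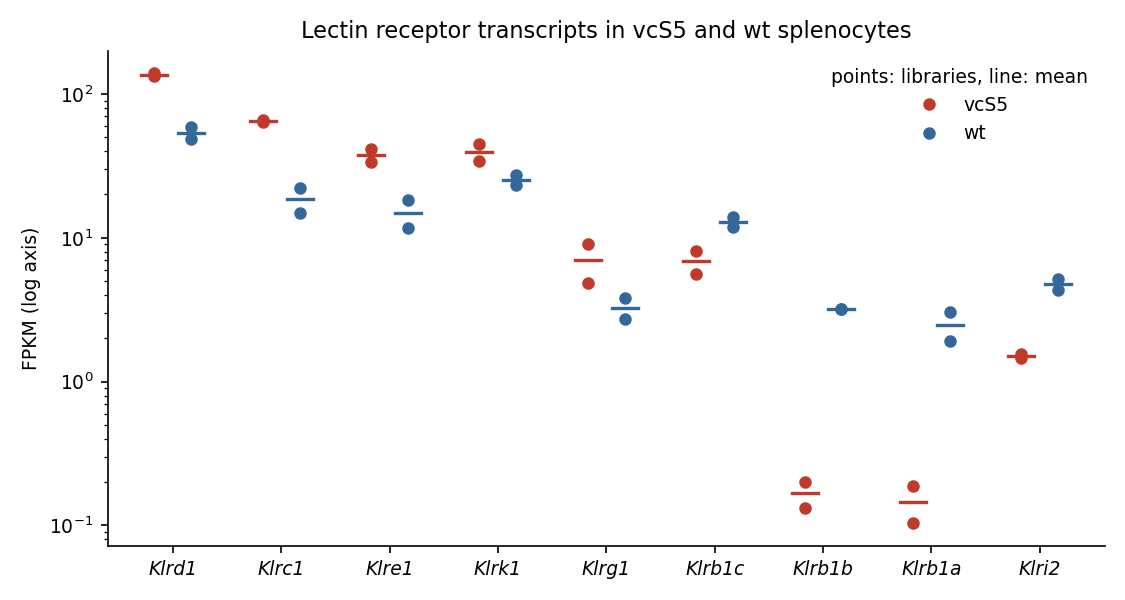
FPKM of the 9 receptors on a log axis, with 1 point per library and a line at the mean, vcS5 in red and wt in blue. Klrd1, Klrc1 and Klre1 lie higher in vcS5, Klrb1a and Klrb1b lie near 0.1 to 0.2 FPKM in vcS5, and no receptor's groups overlap.

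Genes of the CD94 and NKG2A receptor were the most abundant of the 9 in vcS5 and rose together. Klrd1 (mm10 chr6:129588024-129598775, plus strand) encodes CD94, the shared chain of the NKG2 heterodimers. It had 133 and 139 FPKM in vcS5 and 59.1 and 48.5 FPKM in wt. Both vcS5 libraries were above both wt libraries, and the mean was 2.53-fold higher in vcS5. The log2 change was 1.33 (SE 0.157, limma adjusted p = 0.014). With any 1 library left out the log2 change ran from 1.19 to 1.47. The call was lost each time, but fits with 1 library in a group gave fewer calls over all rows too. The same limit applies to the lost calls of the receptors below.

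Klrc1 (chr6:129647306-129678973, minus strand) encodes NKG2A, which carries the inhibitory motifs of the pair. It had 63.5 and 65.7 FPKM in vcS5 and 22.3 and 14.9 FPKM in wt. The vcS5 libraries lay close together and far above the wt libraries, which differed more from each other. The mean was 3.47-fold higher in vcS5, with a log2 change of 1.77 (SE 0.213, limma adjusted p = 0.0146). This was the largest rise among the 9 receptors. The call held without wt replicate 1 (log2 change 2.05, limma adjusted p = 0.0347). It was lost without wt replicate 2 (1.49, adjusted p = 0.0537), vcS5 replicate 1 (1.79, 0.094) or vcS5 replicate 2 (1.75, 0.125), all by limma.

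The Klrc1 row also lists the identifier of Klrc2, and a separate Klrc2 row shares its locus. Klrc2 encodes NKG2C, the activating counterpart of NKG2A. Of all 50-base windows in GENCODE transcripts of Klrc1, the length of the reads, 36.6% also occur in Klrc2. The coding sequences of Klrc1-201 and Klrc2-202 are 81.5% identical, and their longest shared run is 100 bases within exon 6 of Klrc1. It is shown because a read from inside it fits both genes. It lies on the minus strand at chr6:129674862-129674961 in Klrc1 and at chr6:129656374-129656473 in Klrc2.
Klrc1 and Klrc2: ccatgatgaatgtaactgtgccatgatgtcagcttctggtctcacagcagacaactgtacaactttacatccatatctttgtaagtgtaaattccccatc
The separate values of both genes are therefore uncertain. The Klrc2 row had 7.33 and 5.40 FPKM in vcS5 and 1.53 and 0.757 FPKM in wt, a log2 change of 1.79 (SE 0.262, limma adjusted p = 0.0223). With both rows added up, which was decided on after seeing the values, the log2 change was 1.82 (limma adjusted p = 0.0146). Klrc3, which encodes the related NKG2E, had 4.35 and 5.36 FPKM in vcS5 and 3.41 and 2.41 FPKM in wt, and did not pass (log2 change 0.59, SE 0.211, limma adjusted p = 0.167). It shares 31.1% of its windows with Klrc2.

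Klrk1 (chr6:129607746-129623864, minus strand), which encodes NKG2D, did not pass the test. It had 44.6 and 34.0 FPKM in vcS5 and 27.3 and 23.4 FPKM in wt. Both vcS5 libraries were above both wt libraries, by a ratio of means of 1.55. The log2 change was 0.60 (SE 0.186, limma adjusted p = 0.124). Its ratio to Klrd1 in the same library was 0.335 and 0.244 in vcS5 and 0.462 and 0.483 in wt. The ratio of Klrc1 to Klrd1 was 0.478 and 0.471 in vcS5 and 0.378 and 0.307 in wt. Relative to Klrd1, Klrk1 transcripts were thus lower and Klrc1 transcripts higher in both vcS5 libraries. Klrd1 serves here as a common reference, and the Klrk1 ratio does not describe a receptor pair. With 2 libraries a group, the two-sided exact permutation test cannot go below p = 0.333, which is what both ratios gave.

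In order of mean level, the vcS5 spleens had Klrd1 first and Klrc1 second, then Klrk1 and Klre1, which overlapped. Klrg1 and Klrb1c followed, overlapping as well, then Klri2, and last Klrb1b and Klrb1a, which overlapped. The wt spleens had Klrd1 first and Klrk1 second, and Klrc1, Klre1 and Klrb1c followed, each overlapping the next. Klri2, then Klrg1 and Klrb1b, which overlapped, and Klrb1a ended the wt order. FPKM is scaled to transcript length, so these levels can be set side by side. Summed over Klrc1, Klrd1, Klrk1 and Klre1, the level was 283 and 273 FPKM in vcS5 and 127 and 98.5 FPKM in wt.

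The dimer partners Klre1 and Klri2 moved in opposite directions. Klre1 (chr6:129577893-129585833, plus strand) encodes a chain that pairs with either KLRI1 or KLRI2, and the KLRI2 pair is the activating form. Klre1 had 41.8 and 33.9 FPKM in vcS5 and 18.2 and 11.6 FPKM in wt. The groups did not overlap, and the mean was 2.53-fold higher in vcS5 (log2 change 1.31, SE 0.245, limma adjusted p = 0.0385). The call was lost with quantile normalization (log2 change 1.28, limma adjusted p = 0.0517). With any 1 library left out the change ran from 1.01 to 1.61 and the adjusted p from 0.0687 to 0.174 by limma.

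Klri2 (chr6:129729041-129740484, minus strand) had 1.56 and 1.45 FPKM in vcS5 and 5.18 and 4.33 FPKM in wt. Its mean was 3.16-fold lower in vcS5, with little spread within either group. The log2 change was -1.20 (SE 0.183, limma adjusted p = 0.0245), and -1.31 to -1.09 with any 1 library left out (adjusted p from 0.0926 to 0.138 by limma). Klri1, the inhibitory partner, had 1.81 and 2.66 FPKM in vcS5 and 2.96 and 2.87 FPKM in wt (log2 change -0.29, SE 0.21, limma adjusted p = 0.467). The ratio of Klre1 to Klri2 was 26.8 and 23.4 in vcS5 and 3.52 and 2.69 in wt. The ratio of Klre1 to its chromosomal neighbour Klrd1 was 0.314 and 0.243 in vcS5 and 0.309 and 0.240 in wt, so these values overlapped between the groups.

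Of the 3 NKR-P1 receptors, 2 fell in vcS5 (Klrb1a and Klrb1b), and Klrb1c did not pass the test. Klrb1b (chr6:128813706-128826331, minus strand) encodes the inhibitory receptor NKR-P1B. It had 0.132 and 0.201 FPKM in vcS5 and 3.22 and 3.19 FPKM in wt. The mean was 19.2-fold lower in vcS5, and the wt libraries were nearly equal. The log2 change was -1.85 (SE 0.203, limma adjusted p = 0.0118). With any 1 library left out it stayed between -1.89 and -1.81, while the adjusted p ran from 0.0691 to 0.0953 by limma.

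Klrb1a (chr6:128609227-128622934, minus strand) encodes NKR-P1A. It had 0.187 and 0.104 FPKM in vcS5 and 3.04 and 1.91 FPKM in wt, and its mean was 17.1-fold lower in vcS5. The log2 change was -1.58 (SE 0.258, limma adjusted p = 0.0284). In the authors' deposited table the log2 fold change of Klrb1a was -4.09 with a q-value of 0.19, so it did not pass there. With any 1 library left out the log2 change ran from -1.82 to -1.35 and the adjusted p from 0.0721 to 0.143 by limma.

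Klrb1c (chr6:128778485-128789215, minus strand) encodes NK1.1, the activating receptor by which NK cells of C57BL/6 mice are commonly identified. It had 8.12 and 5.62 FPKM in vcS5 and 11.9 and 13.9 FPKM in wt. Both vcS5 libraries were below both wt libraries, with a mean 1.88-fold lower. The log2 change of -0.84 did not pass (SE 0.207, limma adjusted p = 0.0757), whereas the q-value in the authors' deposited table was 0.00541. Klrb1f, another NKR-P1 gene, had 2.11 and 2.16 FPKM in vcS5 and 5.45 and 4.02 FPKM in wt (log2 change -0.86, SE 0.199, limma adjusted p = 0.0647).

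The sequence before the start sites of Klrb1a and Klrb1c is alike, while their mean levels were 17.1-fold and 1.88-fold lower in vcS5. The stretch aligned between their RefSeq promoters is 87.4% identical over 215 aligned positions, while Klrb1a and Klrb1b align over 82 positions only. The stretches are shown for that comparison, from RefSeq on GRCm38.p6, minus strand, 5′ to 3′, with capitals where the bases differ or are missing in the other gene. The first lies at chr6:128622975-128623184 and the second at chr6:128788642-128788856.
Klrb1a: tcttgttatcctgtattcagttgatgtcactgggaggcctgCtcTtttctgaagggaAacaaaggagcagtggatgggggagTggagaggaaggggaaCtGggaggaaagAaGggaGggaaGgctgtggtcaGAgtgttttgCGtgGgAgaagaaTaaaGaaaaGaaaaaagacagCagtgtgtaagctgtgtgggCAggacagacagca
Klrb1c: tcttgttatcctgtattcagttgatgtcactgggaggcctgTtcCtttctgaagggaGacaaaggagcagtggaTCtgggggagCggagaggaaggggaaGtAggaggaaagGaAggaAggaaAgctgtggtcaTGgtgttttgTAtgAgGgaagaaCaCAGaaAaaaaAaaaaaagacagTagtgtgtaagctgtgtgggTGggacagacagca
Of the 50-base windows of Klrb1a, 9.92% occur in another annotated gene, against 27.2% for Klrb1b and 17% for Klrb1c, and for both of these the gene sharing most is Gm44511. Klrd1, Klrk1 and Klrg1 share 0 windows with any other annotated gene.

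RefSeq promoters, 250 bases before to 50 after the start, were at hand for 6 of the 9 receptors (Klrb1a, Klrb1b, Klrb1c, Klrc1, Klre1 and Klrk1). The STAT motif TTCNNNGAA, searched on both strands, matched in 0 of these 6, against 8.3% of all 32851 promoters. The T-box motif AGGTGTGA also matched in 0 of 6, against 1.28% of all. The RUNX motif TGTGGTT matched in 2 (Klre1 and Klrk1), against 5.27%, and the ETS motif AGGAAGT in 2 (Klrb1a and Klrb1b), against 9.35%. The Klrb1a match lies after the start site. The stretch aligned with Klrb1c ends at -41 from the Klrb1a start but at -1 from the Klrb1c start. The Klrb1c window therefore ends before the place that corresponds to the Klrb1a match, and that place was not searched. The 6 receptors have 8 promoter windows, as Klrb1b and Klre1 have 2 each, while the shares of all promoters are per window. The RUNX match of Klre1 is in its window at chr6:129577963-129578262 and not in its other window. No overlap between these motifs occurred in the matches. These letters describe the windows and do not mark sites in use.

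Klrg1 (chr6:122270596-122282882, minus strand) encodes an inhibitory receptor of effector T cells and mature NK cells, and starts at -6.34 Mb relative to the start of Klrb1a, outside the cluster. It had 9.10 and 4.84 FPKM in vcS5 and 3.84 and 2.71 FPKM in wt. The vcS5 libraries differed widely, but the lower of them was above both wt libraries. The ratio of means was 2.13, with a log2 change of 0.86 (SE 0.313, limma adjusted p = 0.173), which did not pass. In the authors' deposited table its q-value was 0.0169. Without vcS5 replicate 1 the log2 change was 0.46 and without vcS5 replicate 2 it was 1.25, neither passing (limma adjusted p = 0.418 and 0.145).

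Along chromosome 6 the signs of the listed lectin genes came in runs. Genes not on the lists were left out. From Klrb1a to Clec7a, over 0.85 Mb, 9 of 10 listed lectin genes had a negative log2 change. The exception was Clec2d with 0.14, and of the 10 only Klrb1a, Klrb1b and Clec7a passed. From Klre1 to Klrc1, within 0.97 to 1.04 Mb of the start of Klrb1a, all 6 listed genes had a positive change. Of these, Klrk1 and Klrc3 did not pass, and Klrc1 and Klrc2 share a locus. Klri1 and Klri2 beyond them were negative again. Of the 7 other lectin genes measured, 1 passed as higher (Klrc2) and 1 as lower (Clec7a, which encodes the fungal glucan receptor of myeloid cells, log2 change -0.90, SE 0.152, limma adjusted p = 0.0316), and their median log2 change was -0.29. The median over all rows was 0.001.

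**Figure D2:**
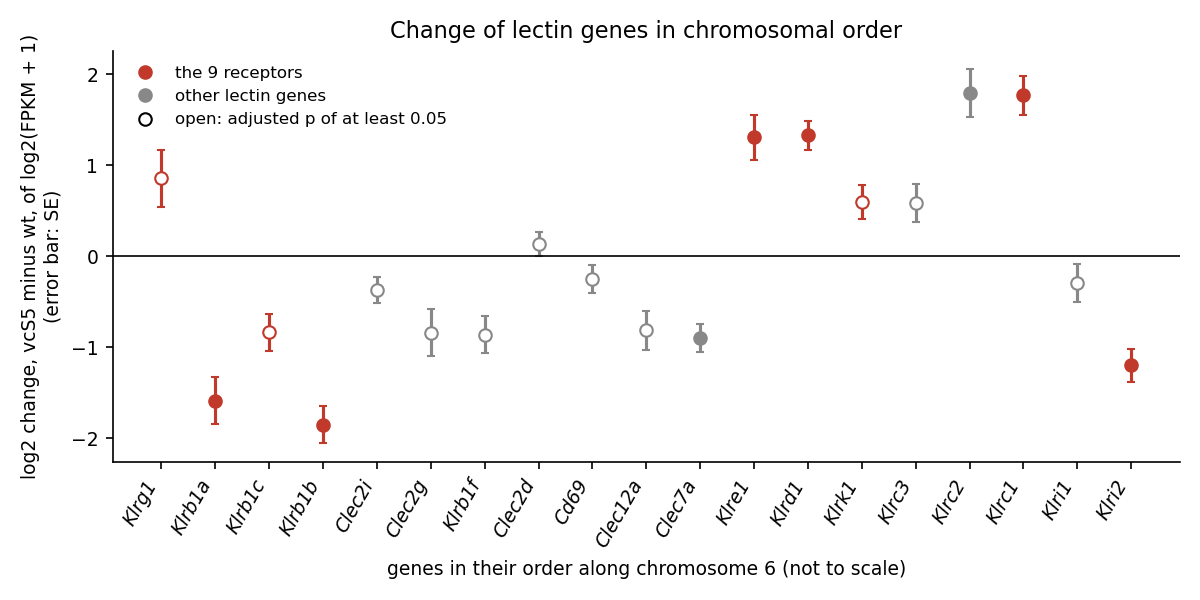
Log2 change (vcS5 minus wt, error bar SE) of lectin genes in their order along chromosome 6, receptors described here in red, others in grey, open points at an adjusted p of at least 0.05. Genes of the Klrb1 end lie below 0 apart from Clec2d, the Klre1 to Klrc1 block above 0, and Klri1 and Klri2 below 0.

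The receptors were set beside markers of the cells that can carry them. Of 15 measured NK cell markers 7 rose, 2 fell and 6 did not pass, with a median log2 change of 0.57. Their summed level was 908 and 997 FPKM in vcS5 and 330 and 315 FPKM in wt. Ncr1, which encodes NKp46 and is a defining marker of NK cells, was 20.4-fold lower in vcS5, at 0.635 and 0.776 FPKM in vcS5 and 13.7 and 15.1 FPKM in wt (limma adjusted p = 0.00161). The other fall was Cd244 (log2 change -1.08). The 7 that rose were Eomes, Tbx21, Nkg7, S1pr5, Ctsw, Il18rap and Prf1, which cytotoxic T cells express as well, with log2 changes from 1.48 to 2.38.

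Of 6 CD8 T cell markers 5 rose, with a summed level of 3530 and 3933 FPKM in vcS5 and 502 and 440 FPKM in wt. Eomes and Nkg7 are in this list and in the NK cell list. Of 8 pan T cell markers 5 rose, summing to 1771 and 2275 FPKM in vcS5 and 648 and 847 FPKM in wt. Of 5 innate lymphoid cell markers 2 rose (Il7r and Gata3, which T cells also express). All 6 B cell markers fell, and so did all 3 CD4 T cell markers. Of 3 gamma delta T cell markers 2 rose (Sox13 and Cd163l1) and 1 fell (Blk, which B cells also express). Of 5 neutrophil markers 1 fell (Csf3r), and of 2 macrophage markers 0 passed. No measured marker of these lists was at 0. Their part in the receptor changes was not tested, and in bulk RNA fewer cells of a type cannot be told apart from less RNA per cell.

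Relative to Ncr1 in the same library, Klrb1a and Klrb1b overlapped between the groups, and the other 7 receptors did not. The log2 ratio of Klrb1b to Ncr1 was -2.26 and -1.94 in vcS5 and -2.09 and -2.24 in wt. For Klrb1a it was -1.77 and -2.90 in vcS5 and -2.17 and -2.98 in wt. The mean differences were 0.06 and 0.24 (two-sided exact permutation p = 1 and 0.667, where 0.333 is the smallest possible). In vcS5 all 3 genes averaged under 1 FPKM, so these ratios are quotients of values near 0 and their overlap does not show that the genes changed alike. Klrb1c differed from them, with a log2 ratio to Ncr1 of 3.68 and 2.86 in vcS5 and -0.20 and -0.12 in wt. For the 7 other receptors this ratio was higher in both vcS5 libraries, by 2.70 for Klri2 up to 6.18 for Klrc1 on the log2 scale. Each was at the smallest p that the exact test can give, 0.333. Ncr1 itself was 20.4-fold lower in vcS5, so any receptor that fell clearly less, such as Klri2 or Klrb1c, has a higher ratio. How many of all rows do the same was not counted.

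Against Cd3e, a chain of the T cell receptor complex, other receptors overlapped. The log2 ratio of Klrd1 to Cd3e was -0.51 and -0.43 in vcS5 and -0.18 and -0.54 in wt, and that of Klre1 was -2.18 and -2.47 in vcS5 and -1.88 and -2.60 in wt. The groups overlapped for both of these (two-sided exact permutation p = 1 each). Klrg1 overlapped too, with -4.37 and -5.28 in vcS5 and -4.12 and -4.70 in wt (two-sided exact permutation p = 0.667). The other 6 did not overlap, each at p = 0.333 by the same exact test. As differences of mean log2 ratios, Klrc1 was 0.37 higher relative to Cd3e in vcS5 and Klrk1 0.84 lower. Klrb1c, Klri2, Klrb1a and Klrb1b were lower, with differences of -2.39, -3.11, -5.57 and -5.75. Against Cd8a, a chain of the CD8 coreceptor, all 9 receptors were lower in vcS5, from -1.05 for Klrc1 to -7.17 for Klrb1b. Cd8a itself was 7.33-fold higher in vcS5 and the largest receptor rise was 3.47-fold (Klrc1), so these lower ratios follow from Cd8a. Cd3e was 2.75-fold higher in vcS5, so a receptor that fell or rose clearly less is lower against it.

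**Figure D3:**
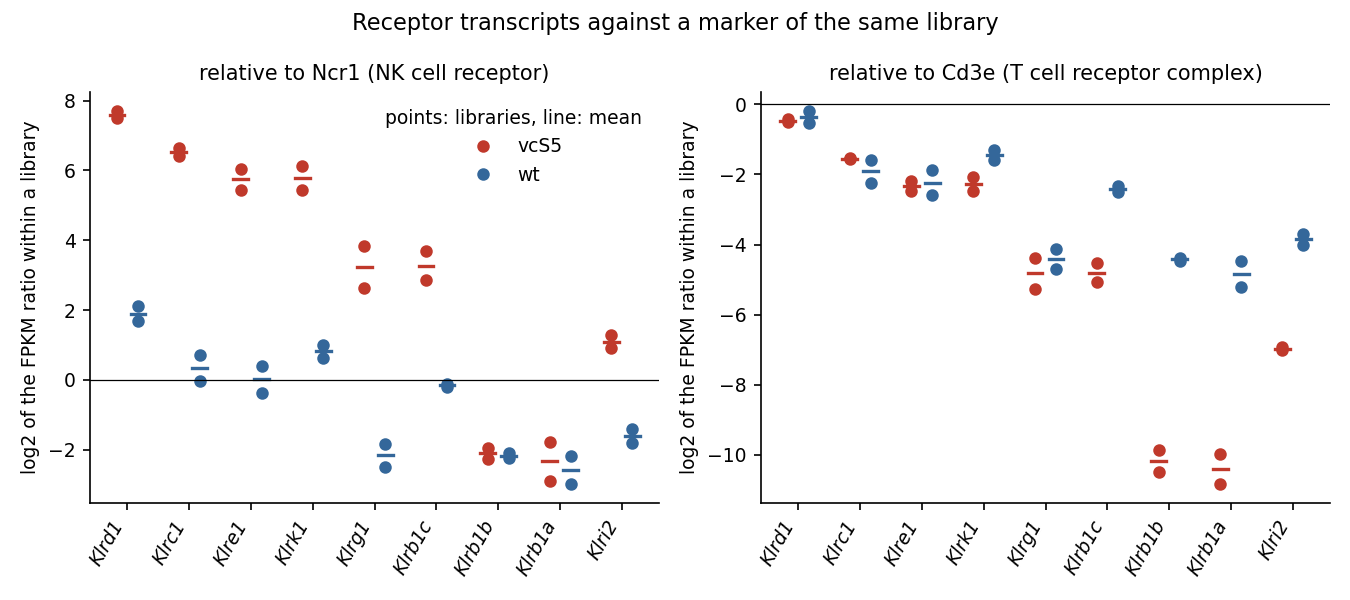
Log2 of the FPKM ratio of each receptor to Ncr1 (left) and to Cd3e (right) within each library, with 1 point per library and a line at the mean, vcS5 in red and wt in blue. Klrb1a and Klrb1b overlap between groups relative to Ncr1, and Klrd1, Klre1 and Klrg1 overlap relative to Cd3e.

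The adaptor chains of these receptors split. Hcst encodes DAP10, through which NKG2D signals. It was 2.71-fold higher in vcS5, with 176 and 171 FPKM in vcS5 and 59.8 and 68.6 FPKM in wt (log2 change 1.43, SE 0.145, limma adjusted p = 0.0106). Tyrobp encodes DAP12, the other NKG2D adaptor in mice and the adaptor of NKG2C, and it is abundant in myeloid cells. It had 73.1 and 76.2 FPKM in vcS5 and 198 and 141 FPKM in wt (log2 change -1.16, SE 0.202, limma adjusted p = 0.0333). The ratio of Hcst to Tyrobp was 2.42 and 2.24 in vcS5 and 0.301 and 0.485 in wt.

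Fcer1g, the Fc receptor gamma chain with which NK1.1 signals, had 48.7 and 59.5 FPKM in vcS5 and 129 and 104 FPKM in wt (log2 change -1.10, limma adjusted p = 0.0302). Syk, the kinase recruited by such chains and abundant in B cells, had a log2 change of -1.43 (limma adjusted p = 0.0112). Zap70, the related kinase of T and NK cells, had 1.21 and Cd247, the CD3 zeta chain, 1.11 (limma adjusted p = 0.0168 and 0.0461). Of 13 adaptor and signalling genes 4 rose (Hcst, Zap70, Cd247 and Pik3cd), 3 fell (Tyrobp, Fcer1g and Syk) and 6 did not pass, with a median log2 change of -0.19. Ptpn6, the phosphatase that binds inhibitory receptors, was among the 6, with 822 and 761 FPKM in vcS5 and 825 and 1048 FPKM in wt. Without the variance trend 2 of these genes rose, and with any 1 library left out 0 rose and 0 fell.

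No ligand passed the test. Of 19 ligand entries, 9 were in the table in 10 rows, and their median log2 change was -0.32. By limma 0 of the 10 rows passed, against 8.72% of all rows. With so few rows, 0 is near that share and is no result about the ligands. H2-T23, which encodes Qa-1, had 158 and 200 FPKM in vcS5 and 156 and 179 FPKM in wt (log2 change 0.09, SE 0.184, limma adjusted p = 0.827). Clec2d, which encodes Clr-b, the ligand of NKR-P1B, had 98.1 and 93.1 FPKM in vcS5 and 87.2 and 86.3 FPKM in wt. Both genes were abundant in both groups. Clec2i, which encodes Clr-g, had 53.4 and 47.3 FPKM in vcS5 and 63.5 and 67.0 FPKM in wt (log2 change -0.37, limma adjusted p = 0.184).

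Among NKG2D ligands, Ulbp1 had 12.3 and 11.7 FPKM in vcS5 and 7.73 and 7.36 FPKM in wt, just short of the threshold (log2 change 0.60, SE 0.139, limma adjusted p = 0.0641). Rows of Raet1d, Raet1e and H60b lie in 1 shared locus. The vcS5 libraries differed there, with 5.42 and 0.824 FPKM for Raet1d and 7.72 and 3.21 FPKM for H60b, against 4.89 and 4.17 FPKM and 7.25 and 6.88 FPKM in wt. Cdh1, which encodes E-cadherin, a ligand of KLRG1, was low, averaging 0.833 ± 0.00432 FPKM in vcS5 and 1.22 ± 0.193 FPKM in wt (SD, n = 2 each). At an unadjusted limma p under 0.05, 3 of the 10 ligand rows differed (Clec2g, Clec2i and Ulbp1). The share of all rows at that level was not counted, so this is no result about the ligands. The authors' deposited table had 0 ligand rows at a q-value under 0.05, against 11.5% of all rows.

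**Figure D4:**
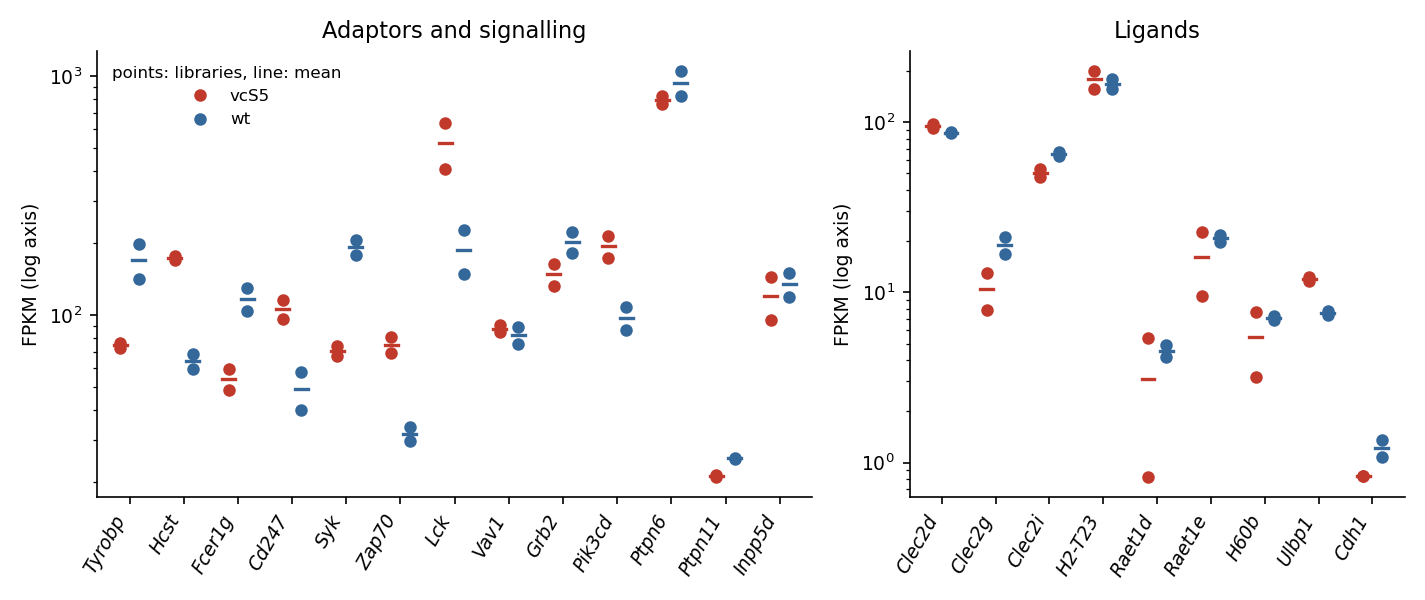
FPKM on a log axis of adaptor and signalling genes (left) and ligand genes (right), with 1 point per library and a line at the mean, vcS5 in red and wt in blue; of 2 Raet1e rows the first in the table is drawn. Hcst lies higher and Tyrobp, Fcer1g and Syk lie lower in vcS5, and H2-T23 overlaps between groups.

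Rows with the pattern most like 2 of the receptors were sought by the distance of centred log2(FPKM + 1) over the 4 libraries. Antigen receptor segments, Gm and Rik symbols, small RNAs and rows without a symbol were left out of this search. Nearest to Klrc1, the receptor with the largest rise, were Fhl2, Ifng and Nt5e, at distances of 0.134, 0.165 and 0.201. Ifng, which encodes interferon gamma, had 25.0 and 21.9 FPKM in vcS5 and 7.72 and 4.80 FPKM in wt. Nearest to Klrb1b, the receptor with the largest fall on that scale, were Cr2, Myof and S1pr3, at 0.223, 0.226 and 0.251. Cr2, the complement receptor of B cells, had 71.8 and 71.9 FPKM in vcS5 and 223 and 229 FPKM in wt. A likeness over 4 libraries of 2 groups mostly repeats the size of the group difference.

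Every receptor kept the sign of its change in all settings tried, which most of these settings could not have changed. As no receptor's groups overlapped, another pseudocount or leaving a library out could not reverse a sign. Only quantile normalization and scaling to the same median could have. The 115 values, 9 receptors under other pseudocounts, filters, scalings, models, the authors' deposited fold changes and with each library left out, held 0 sign changes. Klrb1a and Klrb1b moved most in size, to -4.09 and -4.26 in the authors' deposited table. With a pseudocount of 0.1 they were -3.38 and -3.64. Calls were less steady, and with a library left out they became fewer over all rows as well. With a library left out, Klrc1 without wt replicate 1 was the 1 receptor call that held.

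**Figure D5:**
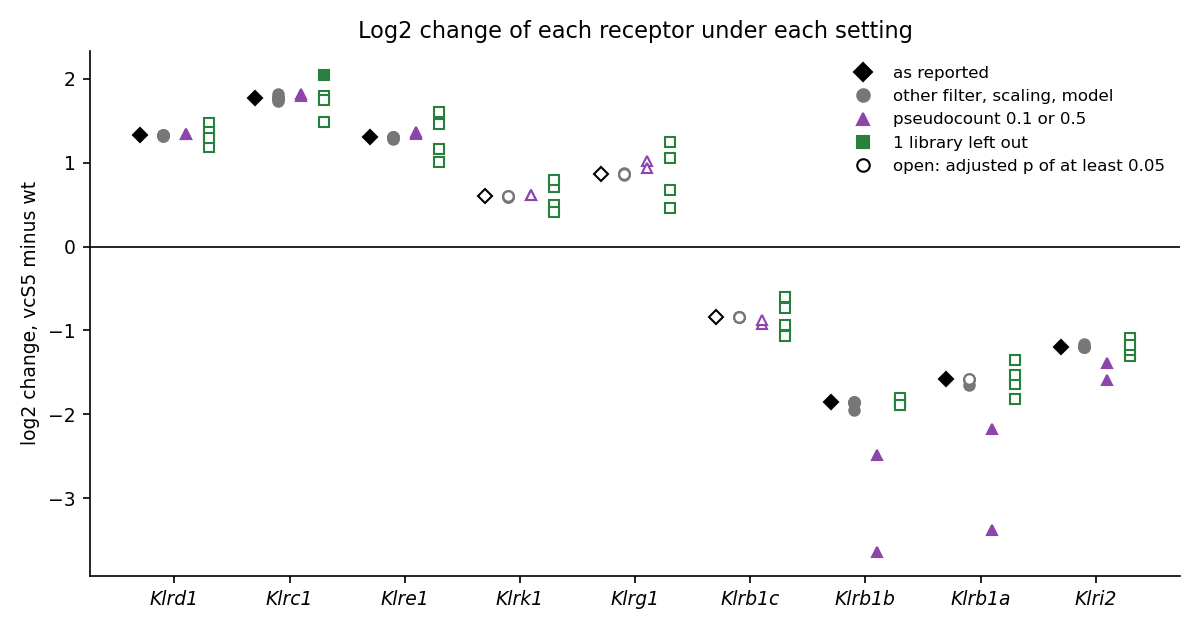
Log2 change (vcS5 minus wt) of each receptor as reported, under other filters, scalings and models, with a smaller pseudocount and with 1 library left out, filled where the adjusted p was under 0.05. No point crosses 0, and most points with a library left out are open.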

How the data were processed

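Libraries were made from 2 µg of total RNA with the TruSeq RNA v2 kit, which does not mark strand, and read as 50-base single ends, per the labels' protocols. The authors deposited 1 FPKM value per row and library, with a log2 fold change, a p-value and a q-value of their own comparison, per the file headers. The submitters' processing notes name, without settings, the mm10 build, Cuffdiff 2.1.1, Cufflinks, TopHat2 2.0.9 and Bowtie2 2.1.0. The depth of the libraries is unknown. The filter of a mean of at least 1 FPKM removed 0 of 14226 rows.

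Values were transformed as log2(FPKM + 1) and fitted in R 4.3.3 with limma 3.58.1 over all rows and 4 libraries, with a variance trend and without covariates (2 residual degrees of freedom). Tests were two-sided. The scripts were tested on simulated data. Members, lists and tests were chosen with earlier results of these data known. The rule for named genes takes the 9 receptors, their listed ligands, adaptors and other lectin genes, markers past the test or defining, and the 3 rows nearest to the receptors with the highest and lowest change. Row starts were turned to 1-based positions. Windows of 50 bases were compared over GENCODE vM21 transcripts on both strands, and promoters aligned with Biopython 1.88.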

Additional observations from a re-analysis of the deposited data

How the results depend on the processing

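All 9 receptors kept their direction in all 115 values, which most settings could not have changed because no receptor's groups overlapped. Of these, 87 kept their side of the threshold, 26 fell short of it and 2 newly passed. The 87 include the setting without the filter, which repeats the reported fit because the filter removed 0 rows. They also include values of Klrb1c, Klrk1 and Klrg1 that stayed short of the threshold. All 26 belong to the 6 receptors that had passed. With each library left out in turn, a single library stands for its group and is assumed to vary like the other group. The lowest and highest log2 changes were then -1.82 and -1.35 for Klrb1a, -1.89 and -1.81 for Klrb1b, 1.49 and 2.05 for Klrc1, 1.19 and 1.47 for Klrd1, 1.01 and 1.61 for Klre1, and -1.31 and -1.09 for Klri2. Receptors higher numbered 0 to 1 and lower 0, against 3 each. Rows past the threshold numbered 71 to 245, against 1241. Adaptor and signalling genes numbered 0 higher and 0 lower, other lectin genes 0 and 0. NK cell markers numbered 0 to 5 higher and 1 lower, and CD8 T cell markers 0 to 5 higher. With the filter at a mean of 5 FPKM, 6 receptors were tested and 0 were lower, 0 other lectin genes were higher and 1 NK cell marker was lower. Klrb1a, Klrb1b and Klri2 have no value under that filter. Without the variance trend 2 adaptor genes were higher, and with quantile normalization Klre1 changed by 1.28 (adjusted p = 0.0517 by limma). In the authors' deposited table the log2 fold changes were -4.09 for Klrb1a (q-value 0.19), -0.91 for Klrb1c and 1.09 for Klrg1 (both passing there). The cause of these differences was not tested. Replicate numbers are shared by the groups, and with 2 pairs (correlation of deviations across rows 0.176) nothing shows that they pair the mice. With the replicate block 1028 rows passed, Klrb1a changed by -1.58 with an adjusted p of 0.0532 by limma, 1 adaptor gene, 0 other lectin genes and 1 NK cell marker were lower, and no other receptor changed its call. Klrb1a and Klrb1b are near 0 in vcS5, and with the depth unknown no interval can be given for those levels.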
